A study of Mus musculus with 21 samples.

Results

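The brain-expressed imprinted genes Peg3, Meg3, Rian, Mirg, Ndn, Snrpn, Ube3a, Grb10, Plagl1 and Dlk1 were chosen by name from the table of read counts, in which all 10 were found among 55487 listed genes. The counts came from bulk polyA RNA sequencing of the hippocampus of wild type C57BL/6 males aged 10 weeks, with 9 mice that underwent maternal separation (MS) and 12 that had standard rearing (SR). In MS, pups were kept from the dam for 4 hr a day between postnatal day (PND) 10 and PND 17, and most nesting material was taken out of the home cage over that time. The separation and the loss of nesting material were applied together and cannot be told apart. Animal numbers in the labels run in 7 sets of 3 consecutive numbers, each of a single condition, here lettered A to C in MS and D to G in SR. Mice are named by set and order, such as A1. In the study whole nests, each with 3 males and 3 females, were assigned to MS or SR, so nestmates shared their condition. The labels name no nest, so whether a set was a litter is not known. The main tests took each mouse, not each nest, as a unit. Their p-values measure the spread between mice that may have been littermates. The numbers also fall into a lower range (54950 to 55068, sets A, B, D, E and F) and a higher range (56999 to 57139, sets C and G), each holding both conditions.

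Imprinted genes are transcribed mainly from the copy inherited from one parent, a choice set by DNA methylation laid down in the germ line at control regions that often govern a whole cluster of genes. Many of them act in growth, in the placenta and in the brain, and loss of the active copy of genes of the Snrpn and Ube3a cluster underlies Prader-Willi and Angelman syndromes. The counts sum both parental copies, so the values below are total levels and say nothing of which copy was read.

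The 10 genes lie in 5 places in the mouse genome (build GRCm38). Dlk1, Meg3, Rian and Mirg form a single cluster on chromosome 12. Dlk1 (chr12:109452823-109463336), paternally expressed, encodes a membrane protein with EGF-like repeats that is related to Notch ligands. Meg3 (chr12:109541001-109571726), Rian (chr12:109603940-109661716) and Mirg (chr12:109729764-109749460) are maternally expressed long noncoding RNAs read in the same direction, and Rian carries small nucleolar RNAs and Mirg microRNAs. Snrpn (chr7:59982495-60140219), a spliceosomal Sm protein, Ndn (chr7:62346569-62350262), the MAGE family protein necdin, and Ube3a (chr7:59228750-59311536), a ubiquitin ligase expressed from the maternal copy in neurons, share a cluster on chromosome 7. Peg3 (chr7:6703892-6730431), a zinc finger protein with roles in maternal behaviour and growth, lies elsewhere on chromosome 7. Grb10 (chr11:11930508-12038683), an adaptor of the insulin receptor, and Plagl1 (chr10:13060504-13131694), a zinc finger transcription factor that restrains growth, complete the list.

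Start regions of 5 genes whose levels moved together across mice are shown, each from 250 bases before to 50 bases after a transcript start (RefSeq, GRCm38.p6), written 5′ to 3′ on the gene's strand. Capitals mark TGCCGC or its reverse complement GCGGCA, the motif bound by ZFP57, the zinc finger protein that keeps methylation at imprinting control regions.
Meg3, chr12:109540746-109541045, plus strand: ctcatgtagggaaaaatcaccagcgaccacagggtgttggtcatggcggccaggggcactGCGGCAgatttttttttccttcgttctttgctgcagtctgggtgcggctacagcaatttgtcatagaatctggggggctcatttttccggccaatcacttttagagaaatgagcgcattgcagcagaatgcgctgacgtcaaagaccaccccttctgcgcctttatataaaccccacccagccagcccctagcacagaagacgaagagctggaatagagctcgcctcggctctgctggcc
Rian, chr12:109603695-109603994, plus strand: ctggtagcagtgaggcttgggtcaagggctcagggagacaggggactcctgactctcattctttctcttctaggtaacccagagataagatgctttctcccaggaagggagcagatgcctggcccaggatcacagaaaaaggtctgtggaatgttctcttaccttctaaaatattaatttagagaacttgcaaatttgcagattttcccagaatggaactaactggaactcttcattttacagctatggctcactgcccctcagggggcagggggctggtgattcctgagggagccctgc
Mirg, chr12:109734731-109735030, plus strand: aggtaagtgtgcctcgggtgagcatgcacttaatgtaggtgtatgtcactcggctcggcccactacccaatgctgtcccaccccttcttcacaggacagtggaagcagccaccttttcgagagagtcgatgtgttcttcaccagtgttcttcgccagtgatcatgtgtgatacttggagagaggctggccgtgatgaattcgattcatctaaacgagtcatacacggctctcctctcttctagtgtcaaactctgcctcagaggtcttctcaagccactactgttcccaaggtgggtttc
Peg3, chr7:6730370-6730669, minus strand: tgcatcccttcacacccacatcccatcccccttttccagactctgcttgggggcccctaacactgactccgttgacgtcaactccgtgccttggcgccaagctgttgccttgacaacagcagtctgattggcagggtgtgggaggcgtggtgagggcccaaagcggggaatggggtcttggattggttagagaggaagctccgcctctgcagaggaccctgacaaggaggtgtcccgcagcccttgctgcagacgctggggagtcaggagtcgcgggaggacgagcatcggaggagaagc
Grb10, chr11:12037371-12037670, minus strand: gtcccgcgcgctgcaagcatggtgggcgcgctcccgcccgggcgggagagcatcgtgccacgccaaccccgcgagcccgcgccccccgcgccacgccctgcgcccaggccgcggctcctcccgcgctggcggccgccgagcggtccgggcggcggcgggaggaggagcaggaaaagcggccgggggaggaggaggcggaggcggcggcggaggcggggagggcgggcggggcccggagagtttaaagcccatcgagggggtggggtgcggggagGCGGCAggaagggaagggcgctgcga
The printed window of Meg3 held the motif at 1 place and 13 CpG dinucleotides, that of Grb10 the motif at 1 place and 45 CpG, and those of Peg3, Mirg and Rian no motif and 13, 10 and 0 CpG. Meg3 and Grb10 each have 2 listed starts, and their other windows, which are not printed, held no motif and 1 and 9 CpG. Over all 32851 windows of this length the motif stood in 11.6% and the median was 7 CpG. The 10 genes have 15 windows, of which 4 held the motif, 1 each of Meg3, Snrpn (4 windows), Grb10 and Plagl1. By gene, 4 of 10 had it in at least 1 window, beside 13.1% of all 27025 genes with a window. The printed Mirg window surrounds a RefSeq start that lies inside the Mirg span given above, not at its upstream end. It covers mmu-miR-668-5p, mmu-miR-668-3p and mmu-miR-485-3p, so its counts describe sequence within that span. A match is a stretch of letters in a window and not a measured binding site.

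The Meg3, Rian and Mirg spans hold 3, 6 and 26 mature microRNAs. Mature forms cannot be read from a polyA library, and a few are printed to show what the transcripts carry, with the seed (bases 2 to 8) in capitals (RefSeq, GRCm38.p6). The first lies in Meg3, the second in Rian and the rest in Mirg.
mmu-miR-770-5p: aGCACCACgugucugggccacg
mmu-miR-370-3p: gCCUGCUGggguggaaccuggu
mmu-miR-134-5p: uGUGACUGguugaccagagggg
mmu-miR-453: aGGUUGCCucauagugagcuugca
mmu-miR-496a-5p: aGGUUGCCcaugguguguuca
The 35 microRNAs had 34 different seeds, and the seed that occurred more than once (GGUUGCC) was that of mmu-miR-453 and mmu-miR-496a-5p.

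A principal component analysis placed 1 library, MS mouse A2, at a distance of 34.6 from the median position, where the next was at 16.1. A2 had 2611 CPM (read counts scaled to a common library size) summed over 11 striatal marker genes against 182 to 938 in the others, and 231 CPM over 8 dentate granule cell markers against 415 to 770, so its profile departed from that of a hippocampus. It was left out, which left 8 MS and 12 SR mice with 17276810 to 26450808 counted reads each. The markers of dentate granule cells and of CA pyramidal neurons (317 to 601 CPM summed over 6 genes) were present in every mouse. Choroid plexus markers (14 genes) varied most, from 60.7 to 4468 CPM summed in MS (median 3499) and from 35.3 to 4787 in SR (median 895). By fold change all 14 were higher in MS, as were all 11 striatal markers, beside 50.3% of all genes. Of the dentate markers 2 of 8 were higher, and of the CA markers 1 of 6. In each of these lists 0 genes were called.

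Meg3 and Snrpn were the most abundant of the 10 genes per length. Meg3 had 272 CPM per kilobase of exon, from a mean of 4923 CPM, and Snrpn 219 CPM per kilobase. Rian (31.5), Peg3 (27.7) and Ndn (26.0 CPM per kilobase) came next, then Ube3a (4.64), Plagl1 (3.91), Grb10 (3.71), Mirg (3.66) and Dlk1 (1.52 CPM per kilobase). Neighbours in this order overlapped over the 20 mice, except that the lowest Snrpn value (192 CPM per kilobase) lay above the highest of Rian (37.9) and the lowest of Ndn (18.7) above the highest of Ube3a (5.15). The order rests on the summed exon length of each gene model. Snrpn shares 589 of its 2159 exon bases (27.3%) with Gm38393, a protein coding gene on the same strand with 92 to 171 reads per library, and those bases include all that it shares with Snurf, which had 0 counts in every mouse. Per kilobase of exon shared with no other listed gene on its strand, Snrpn had 301 CPM and Meg3 276 CPM, so the order of these genes depends on the length used. Ube3a has 1803 exon bases opposite the antisense transcript Snhg14, 2025 opposite Gm44560 and 1796 opposite 9330162G02Rik, of 20626 exon bases. Reads of these genes can be told from those of Ube3a only if the counting used strand, which was not given in the sources used here.

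The spread between mice differed widely among the 10 genes. Ube3a varied least, from 86.5 to 106 CPM, a 1.23-fold range. Its biological coefficient of variation, the variation between mice beyond counting noise, was 5.98%, and 6.75% of all 18146 genes tested had a lower one. Dlk1 varied most, from 1.31 CPM (31 reads, mouse E2) to 23.1 CPM (mouse C3), a 17.6-fold range, with a coefficient of 65.6% that exceeded those of 99.2% of genes. Plagl1 stood between, with a 2.48-fold range and a coefficient of 27.1% (above 89.2% of genes). The other members had coefficients of 9.43% (Snrpn) to 16.5% (Grb10).

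**Figure D1:**
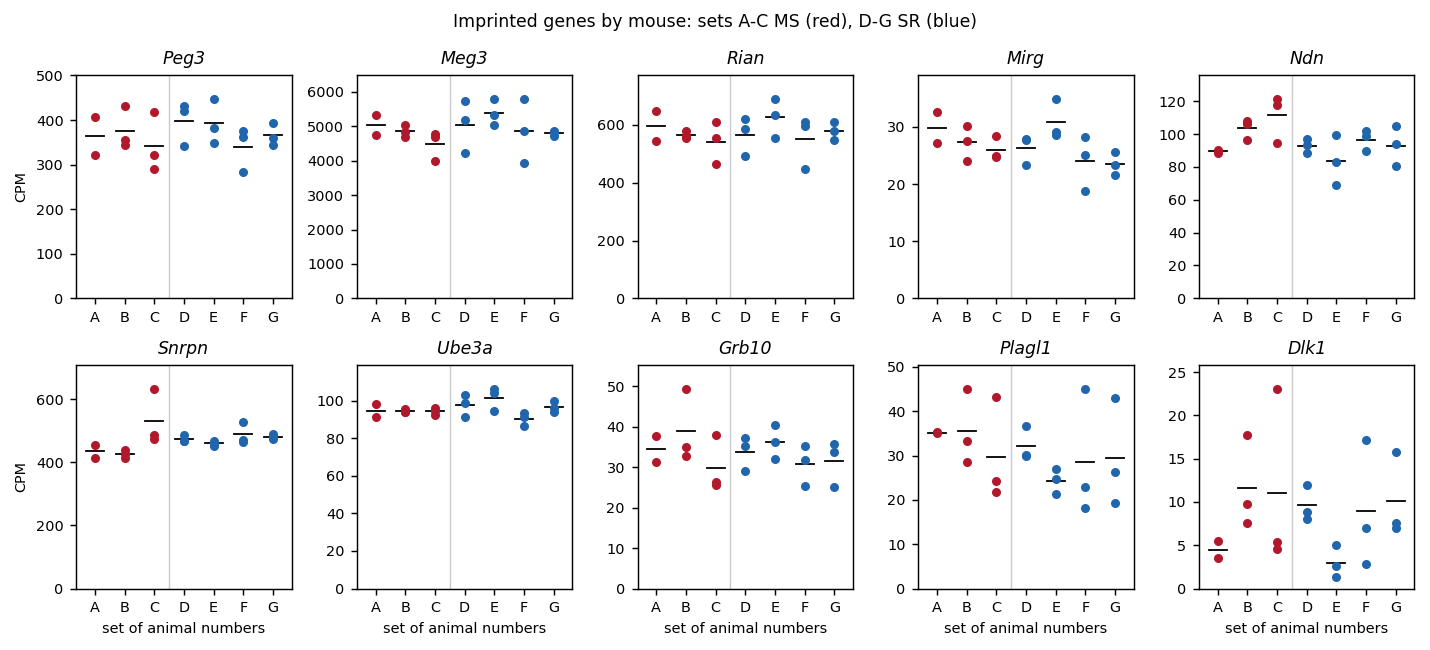
Level of each imprinted gene (CPM, vertical axis from 0) in each of 20 mice, by set of animal numbers, with MS in red (sets A to C), SR in blue (sets D to G) and a bar at the set mean. Dlk1 and Plagl1 scatter widely within most sets, Ube3a hardly at all, and Snrpn has 1 high mouse (C1, 633 CPM).

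The members did not pass the test of differences between the sets of animal numbers. Of the 10, 0 had an adjusted p under 0.05 for differences between sets within condition (edgeR quasi-likelihood test, Benjamini-Hochberg adjustment), beside 0.0331% of all genes. An unadjusted p under 0.05 was found for 1 of the 10, beside 9.09% of all genes, and DESeq2 called 0 of the 10 (0.987% of genes). The share of a gene's variation within condition that lay between sets ran from 14.7% (Plagl1) to 53.9% (Snrpn), with 5 of 18 degrees of freedom between sets. When no filter on low counts was used, 5 of the 10 (Mirg, Snrpn, Grb10, Plagl1 and Dlk1) had an adjusted p under 0.05, in a fit that called 5.1% of all genes. The other alternatives called 0 of the 10, as did every fit without 1 mouse.

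Snrpn was the gene with the unadjusted p under 0.05 between sets (p = 0.0219, edgeR adjusted p = 0.487). Its MS set means were 435 CPM ± 29.6 (SD, n = 2) in A, 427 ± 13.2 (SD, n = 3) in B and 531 ± 89.0 (SD, n = 3) in C. Those in SR ran only from 460 to 488 CPM. Set C held mouse C1 at 633 CPM, with the other 2 mice at 474 and 485 CPM. Mirg came next (edgeR p = 0.0543, adjusted p = 0.553). Its set means ran from 23.5 CPM ± 1.96 (SD, n = 3) in G to 30.9 ± 3.53 (SD, n = 3) in E. All 3 mice of set E were at or above 28.6 CPM, where those of set G lay between 21.6 and 25.5 CPM. Dlk1 was lowest in the same set E, at 1.31, 2.63 and 5.01 CPM, and its highest set mean was that of B, at 11.7 CPM ± 5.35 (SD, n = 3). Within set C its levels were 4.53, 5.35 and 23.1 CPM.

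The comparison of MS with SR asked whether separation in early life left a lasting change in the hippocampus. None of the imprinted genes passed the test. Of the 10, 0 had an adjusted p under 0.05 (edgeR quasi-likelihood test over 18146 genes), where 0.011% of all genes did, and 1 had an unadjusted p under 0.05, beside 11.5% of all genes. By direction that was 1 gene higher in MS (6.62% of all genes) and 0 lower (4.92%). DESeq2 also called 0 of the 10, and 0.966% of the genes to which it gave an adjusted p. The fold change was above 0 for 5 genes and below 0 for 5, with a median log2 fold change of 0.02 beside 0.00 (0.00084) over all genes. The 8 MS and 12 SR mice overlapped for every member, as they did for all but 0.011% of the genes tested. In whole tissue, fewer cells of a type and less RNA per cell cannot be told apart.

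Of the chromosome 12 cluster, Meg3 had 3991, 4772 and 5331 CPM (lowest, median and highest) in MS and 3939, 4965 and 5808 CPM in SR, with a log2 fold change of -0.08 (95% interval -0.22 to 0.06). The SR mice spanned the whole MS range, and 6 of 8 MS mice were below the SR median. Rian had 465, 558 and 649 CPM in MS and 448, 591 and 691 CPM in SR (log2 fold change -0.04, interval -0.18 to 0.09). Mirg had 24.0, 27.4 and 32.6 CPM in MS and 18.7, 26.6 and 35.0 CPM in SR (log2 fold change 0.07, interval -0.11 to 0.25). The 3 noncoding RNAs of the cluster lay within 0.08 of no difference on the log2 scale, and none of their intervals reached beyond 0.25 in either direction. Dlk1, on the other side of the cluster, had 3.50, 6.49 and 23.1 CPM in MS and 1.31, 7.26 and 17.1 CPM in SR. Its log2 fold change of 0.27 had the widest interval of the list, -0.66 to 1.19.

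Ndn, which encodes necdin, was the member closest to a difference. It had 88.3, 101 and 122 CPM in MS and 69.1, 93.5 and 105 CPM in SR, and 4 of 8 MS mice exceeded the highest SR mouse. The log2 fold change was 0.17 ± 0.07 (SE; interval 0.02 to 0.32), with p = 0.0282 unadjusted and an adjusted p of 0.368 in edgeR. With each mouse left out in turn, the fold change stayed between 0.13 and 0.19 and the adjusted p between 0.231 and 0.520. Snrpn had 414, 448 and 633 CPM in MS and 453, 469 and 528 CPM in SR. For 4 of 8 MS mice the level was below the lowest SR mouse and for 1 above the highest, and the log2 fold change was -0.02 (interval -0.15 to 0.10). Ube3a had 91.2, 94.2 and 97.9 CPM in MS and 86.5, 95.4 and 106 CPM in SR, with the narrowest interval of the list (log2 fold change -0.03, interval -0.11 to 0.04).

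Snrpn was the member whose call depended on which mice were fitted. Without set C its log2 fold change was -0.15 with an edgeR adjusted p of 0.0359, in a fit that called 340 of 18561 genes (1.83%). Without mouse C1 alone no member was called, and the log2 fold change of Snrpn was -0.10 (edgeR adjusted p = 0.340), against -0.02 with all 20 mice. The choroid plexus markers moved with the same sets: they summed to 3336 to 4468 CPM in the mice of sets A and B and to 60.7 to 1462 CPM in set C. With that sum as a term in the fit of all 20 mice, the Snrpn log2 fold change was 0.01, where it was -0.02 without the term. Astrocyte markers also differed between these sets, at 1103 to 1221 CPM summed in the mice of A and B and 1277 to 1389 CPM in C. Mouse C1 had the highest astrocyte (1389 CPM) and oligodendrocyte (7510 CPM) sums of the 20 mice. The part of these markers in the value without set C was not tested.

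Peg3 had 291, 349 and 431 CPM in MS and 284, 369 and 448 CPM in SR (log2 fold change -0.05, interval -0.22 to 0.11). Grb10 had 25.5, 33.9 and 49.4 CPM in MS and 25.2, 34.6 and 40.4 CPM in SR (log2 fold change 0.06, interval -0.17 to 0.28), with mouse B1 alone above the SR mice. B1 also had the highest sums of striatal markers (938 CPM, next 615) and of thalamus markers (203 CPM, next 174) among the 20 mice, and their part in its Grb10 level was not tested. Plagl1 had 21.7, 34.1 and 45.1 CPM in MS and 18.1, 26.7 and 44.996 CPM in SR. In 6 of 8 MS mice it was above the SR median, and its log2 fold change was 0.21 (interval -0.16 to 0.59).

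**Figure D2:**
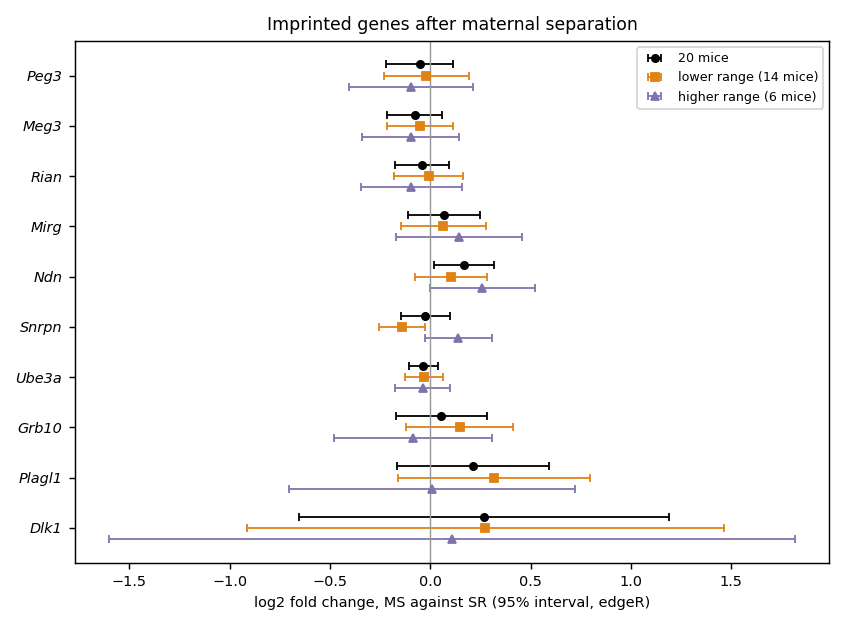
Log2 fold change of each imprinted gene in MS against SR (horizontal axis), with bars for the 95% interval from edgeR, over all 20 mice (black circles), in the lower range of animal numbers (orange squares, 14 mice) and in the higher range (purple triangles, 6 mice). Over all mice only the interval of Ndn (0.02 to 0.32) leaves out 0, without passing the adjusted test, and Snrpn lies on opposite sides of 0 in the ranges.

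The ranges of animal numbers, which may mark batches, were compared next. In the lower range 5 MS and 9 SR mice remained and in the higher range 3 and 3. The MS effect differed between ranges for 0 of the 10 genes at an adjusted p under 0.05 (edgeR interaction test; 0% of all genes, and 0 of the 10 by DESeq2, which called 0.0864% of genes) and for 1 at an unadjusted p under 0.05, beside 8.67% of all genes. That gene was Snrpn, with a log2 fold change of -0.14 (interval -0.26 to -0.02) in the lower range and 0.14 (interval -0.03 to 0.31) in the higher, a difference of 0.28 ± 0.10 (SE, p = 0.00906, edgeR adjusted p = 0.455). Without mouse C1 this difference was 0.13 (edgeR adjusted p = 0.534). Ndn had log2 fold changes of 0.10 (interval -0.08 to 0.28) and 0.26 (interval -0.00199 to 0.52). Grb10 had values of 0.15 and -0.08, and Plagl1 of 0.32 and 0.01, all with intervals that held 0.

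Within the conditions, several of the imprinted genes varied together from mouse to mouse. Correlations were computed on log2 CPM centred on the condition mean, for 45 pairs over 20 mice, with permutation p-values from 100000 draws adjusted over the 45. By Pearson's r 19 pairs passed, all of them positive. Meg3, Rian, Mirg, Peg3, Grb10 and Ube3a formed a group in which 15 of 15 pairs passed, with r from 0.54 to 0.90. The group was picked from these same values, so that count is not separate support for it. The other 4 pairs linked Plagl1 with Peg3, Grb10 and Dlk1, and Dlk1 with Ndn. Snrpn was in no such pair.

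Meg3 and Rian, neighbours on chromosome 12, had r = 0.90 (permutation p = 1e-05, the smallest 100000 draws can give; adjusted p = 0.00015) and rho = 0.71 (adjusted permutation p = 0.0078). Mouse F3 was the lowest of the 20 in both and E2 the highest in Rian, with F1 the highest in Meg3. F3 also had the highest summed dentate granule cell (770 CPM) and CA pyramidal neuron (601 CPM) markers and the lowest neocortical layer markers (144 CPM). E2 had the lowest dentate (415 CPM) and CA (317 CPM) sums and the highest neocortical sum (354 CPM). The part of these markers in the levels of F3 and E2 was not tested. Of the other 18145 genes tested, 0.110% correlated with Meg3 as strongly as Rian did, and 0.959% as strongly as Mirg (r = 0.81, adjusted permutation p = 0.000562, rho = 0.82). Correlated genes were common in these data, since 13.0% of all genes had r above 0.5 with Meg3. The weaker pairs that passed stood less apart. Of all other genes, 8.47% followed Meg3 as closely as Ube3a did and 8.69% as closely as Grb10. For Peg3, 10.6% followed it as closely as Plagl1 did. Dlk1, in the same cluster, had r of -0.09 with Meg3 and -0.01 with Rian (adjusted permutation p = 0.794 and 0.963). Peg3 and Grb10, on different chromosomes, had r = 0.84 (adjusted permutation p = 0.00015) and rho = 0.89, and 0.457% of genes followed Peg3 as closely.

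Dlk1 went with Ndn (r = 0.64, adjusted permutation p = 0.0117, rho = 0.51 with adjusted p = 0.0655) and with Plagl1 (r = 0.60, adjusted permutation p = 0.0197, rho = 0.63). All of C3, F2 and G3 were high in both Dlk1 (15.8 to 23.1 CPM) and Plagl1 (43.1 to 44.996 CPM). B2, the highest in Plagl1 (45.1 CPM), had 9.78 CPM of Dlk1. B1 had 17.7 CPM of Dlk1, above F2 and G3, and 33.2 CPM of Plagl1. E2, the lowest in Dlk1, was near the middle in Plagl1 at 27.1 CPM. In the lower range of animal numbers alone, Dlk1 with Plagl1 had r = 0.55 (adjusted permutation p = 0.174). The Dlk1 and Ndn relation was weaker without the 2 mice farthest from the Ndn median (r = 0.36).

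**Figure D3:**
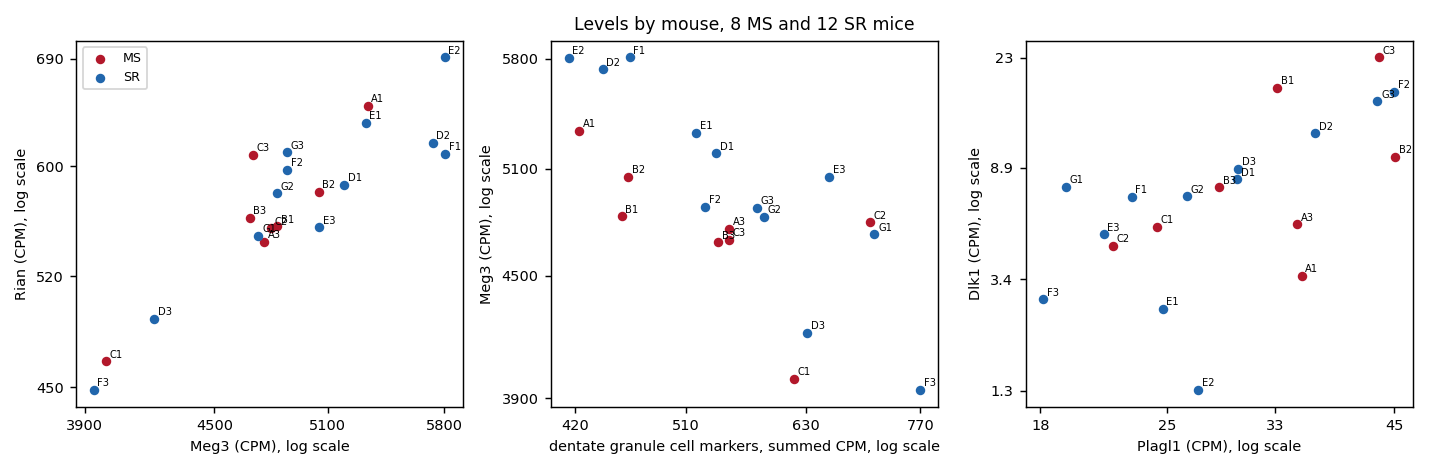
Levels in 8 MS (red) and 12 SR (blue) mice on log scales in CPM, for Rian against Meg3 (left), Meg3 against the summed level of 8 dentate granule cell markers (middle) and Dlk1 against Plagl1 (right). Rian rises with Meg3 (r = 0.90), Meg3 falls with the dentate markers (r = -0.80), and Dlk1 rises with Plagl1 (r = 0.60).

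Over the 19 pairs, r without the 2 mice farthest from the median of the first gene ran from 0.34 to 0.81, the lowest being that of Peg3 and Ube3a. By Spearman's rho 16 of the 19 passed, and the 3 that did not were Meg3 with Ube3a, Mirg with Ube3a and Ndn with Dlk1. In the lower range of animal numbers r was positive in all 19 (0.30 to 0.93). In the higher range 16 were positive (0.30 to 0.93), and Ube3a had negative r there with Peg3 (-0.27), Meg3 (-0.44) and Rian (-0.22), over only 6 mice.

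The group of 6 was also correlated with the summed levels of several marker lists. Correlations of the 10 genes with 13 lists were a comparison added after the values had been seen. By Pearson's r, 31 of 130 relations had an adjusted permutation p under 0.05. Some of these did not pass by rho, and adjusted p-values below are those of r unless rho is named. The 6 genes follow each other, so a sign they share with a list is not 6 separate results. Each of the 6 was negative with dentate granule cell markers (Meg3 r = -0.80, rho = -0.80, adjusted permutation p = 0.00159) and with CA pyramidal neuron markers (Mirg r = -0.80, rho = -0.73, adjusted permutation p = 0.00111). By rho Ube3a did not pass with either list (adjusted permutation p = 0.101 for each). Of all other genes tested, 1.35% were as negative with the dentate markers as Meg3 and 7.35% as negative as Ube3a, the weakest of the 6. With the CA markers 1.57% were as negative as Mirg.

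Each of the 6 was positive with neocortical layer markers over the 20 mice (Mirg r = 0.87, rho = 0.82, adjusted permutation p = 0.00111), where 0.540% of other genes reached the value of Mirg and 6.61% that of Grb10, the weakest. Only 3 of the 6 kept that sign in both ranges of animal numbers, since r in the higher range was -0.37 for Peg3, -0.79 for Meg3 and -0.51 for Rian. For Meg3, r with dentate markers was -0.89 in the lower range and 0.00361 in the higher. Without the 2 farthest mice r was -0.71 for Meg3 with dentate markers, -0.71 for Mirg with CA markers and 0.75 for Mirg with neocortical markers.

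Nuclear long noncoding RNAs (4 genes, among them Malat1 and Neat1) were positive with Meg3 (r = 0.83, rho = 0.79, adjusted permutation p = 0.00111), with Rian (r = 0.72) and with Mirg (r = 0.61). For Meg3 this r was 0.85 in the lower and 0.74 in the higher range, and 0.187% of other genes reached the value over the 20 mice. For Rian r was 0.81 in the lower and 0.34 in the higher range, and for Mirg 0.69 and -0.14. Over the 20 mice 1.65% of other genes reached the value of Rian and 5.12% that of Mirg. By rho Rian (adjusted permutation p = 0.0517) and Mirg (adjusted permutation p = 0.0575) did not pass. GABAergic interneuron markers were positive with 5 genes of the group (Peg3 r = 0.83, rho = 0.86, adjusted permutation p = 0.00111). Of other genes, 0.0276% reached the value of Peg3 and 3.61% that of Mirg, the weakest of the 5. By rho Meg3 (adjusted permutation p = 0.0878) and Mirg (adjusted permutation p = 0.135) did not pass with this list. Grb10 was positive with striatal markers (r = 0.67, adjusted permutation p = 0.00269), with r = 0.42 without the 2 farthest mice, and 0.866% of other genes reached its value. By rho this relation did not pass (rho = 0.57, adjusted permutation p = 0.051). Astrocyte markers were negative with Grb10 (r = -0.71) and Peg3 (r = -0.59). Endothelial markers were positive with Ube3a (r = 0.60) and negative with Dlk1 (r = -0.62). By rho none of these astrocyte and endothelial relations passed (adjusted permutation p from 0.0514 to 0.102). Of other genes, 1.02% were as negative with astrocyte markers as Grb10 and 4.55% as Peg3. With endothelial markers 1.35% reached the value of Ube3a and 0.783% that of Dlk1. Choroid plexus markers were related to 0 of the 10. The part of these marker levels in the joint movement of the genes was not tested.

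**Figure D4:**
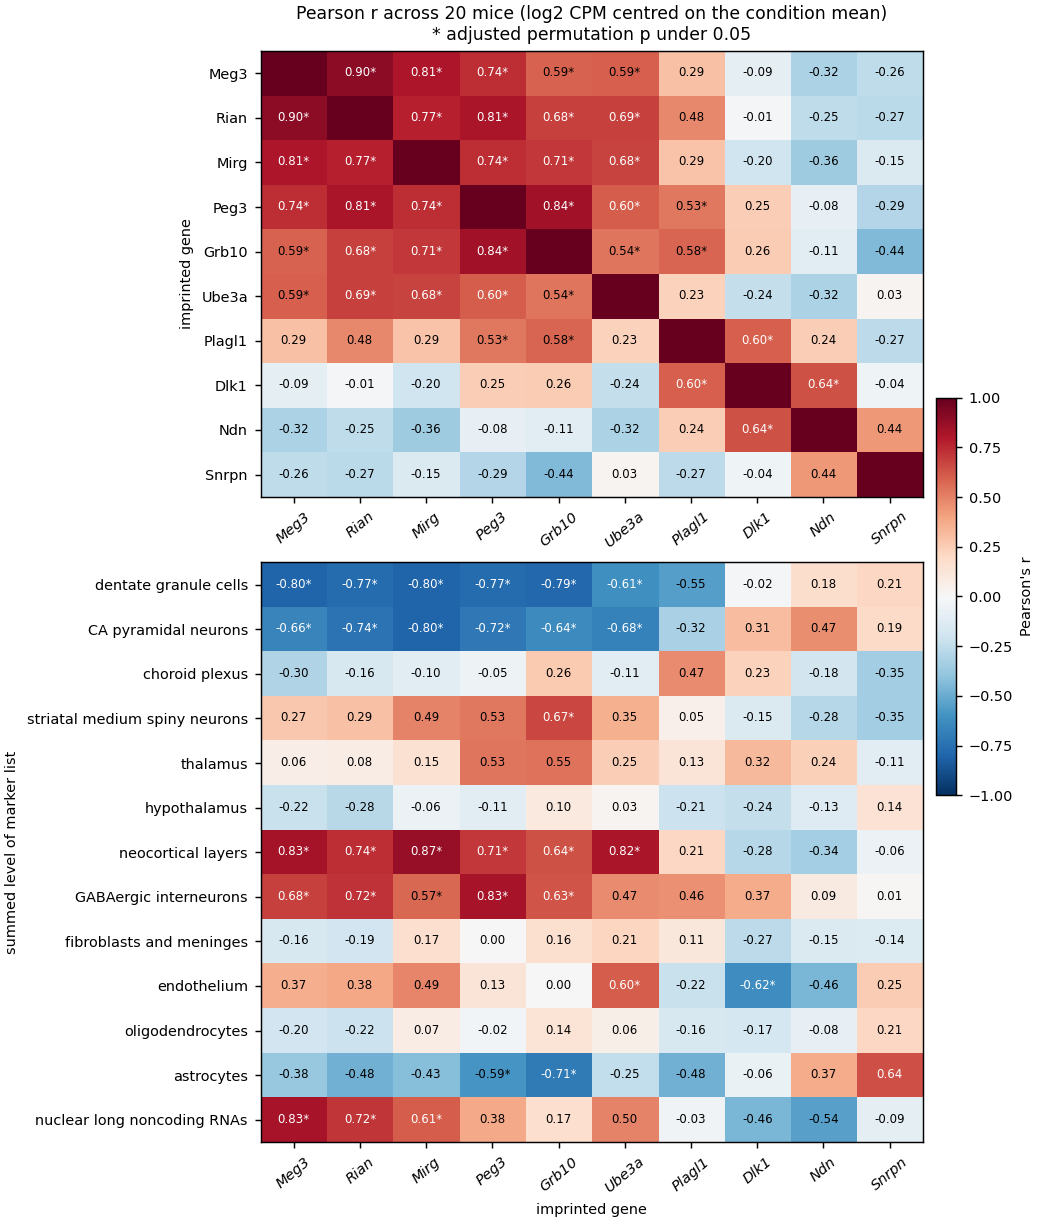
Pearson's r across 20 mice (colour and number, log2 CPM centred on the condition mean) between pairs of imprinted genes (upper grid) and between each gene and the summed level of each marker list (lower grid). Stars mark adjusted permutation p under 0.05, and the 15 pairs among Meg3, Rian, Mirg, Peg3, Grb10 and Ube3a all carry one.

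A wider list of 56 other imprinted genes gave 44 with enough reads to test. Of these 0 were called in MS against SR, and 4 had an unadjusted p under 0.05 in edgeR (3 higher and 1 lower), beside 11.5% of all genes. DESeq2 called 0 of the 37 to which it gave an adjusted p, with 5 of the 37 at an unadjusted p under 0.05, beside 13.4% of all genes with an adjusted p. The fold change was above 0 for 29 and below 0 for 15, with a median log2 fold change of 0.05 beside 0.00 (0.00084) over all genes. The genes listed as maternally expressed had 12 of 18 above 0 and those listed as paternally expressed 14 of 22. Which copy was read in the hippocampus was not measured. H13, a signal peptide peptidase, had 62.3, 68.5 and 72.6 CPM in MS and 59.9, 64.3 and 66.9 CPM in SR (log2 fold change 0.08, p = 0.0245, edgeR adjusted p = 0.354), and 5 of 8 MS mice exceeded every SR mouse. Kcnq1, a potassium channel, had a log2 fold change of 0.34 (p = 0.0489, edgeR adjusted p = 0.432) and all 8 MS mice above the SR median, at mean levels of 0.919 CPM in MS and 0.722 CPM in SR. Rasgrf1, a Ras exchange factor of neurons, had 452, 575 and 698 CPM in MS and 509, 665 and 726 CPM in SR, with 7 of 8 MS mice below the SR median (log2 fold change -0.16, p = 0.0272, edgeR adjusted p = 0.366). Next among the lower were Kcnq1ot1 (-0.07, edgeR p = 0.125, adjusted p = 0.563) and Inpp5f (-0.07, edgeR p = 0.132, adjusted p = 0.572).

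Of the listed genes that neighbour the 10 in their clusters, 9 could be tested. In MS against SR edgeR called 0 of them, beside 0.011% of all genes. An unadjusted p under 0.05 was found for 1 of the 9, beside 11.5% of all genes. Beside Peg3, Zim1 had 5.03, 6.52 and 10.5 CPM in MS and 4.99, 6.04 and 7.00 CPM in SR (log2 fold change 0.24, p = 0.0456, edgeR adjusted p = 0.424), with mice B1 and C3 above the rest, and Usp29 had a log2 fold change of 0.00 (0.00428). In the chromosome 12 cluster Rtl1, a retrotransposon-derived gene, had a log2 fold change of 0.09 and Dio3, the deiodinase that inactivates thyroid hormone, of -0.06 with a 28.1-fold range between mice. In the Snrpn cluster Magel2 had 0.68 (interval -0.23 to 1.59) with a 14.4-fold range, Mkrn3 0.08 and Snhg14 -0.12 (interval -0.28 to 0.05). On either side of Grb10, Ddc, the decarboxylase that makes dopamine and serotonin, had a log2 fold change of 0.07 (interval -0.18 to 0.32) and Cobl, an actin nucleator, of -0.07 (interval -0.81 to 0.68) with a 6.86-fold range. Snurf, Peg12 and Zfp264 had at most 0, 7 and 3 reads in any mouse and were not tested. Dlk1, Dio3 and Magel2 each had a coefficient of variation above those of 99.2% of genes or more.

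Between the ranges of animal numbers the MS effect differed for 0 of the 44 at an adjusted p under 0.05 and for 5 at an unadjusted one in edgeR, beside 8.67% of all genes. In all 5 (Igf2, Mest, Pon3, Igf2r and Slc22a3) the effect was lower in the higher range. DESeq2 called 0 of the 51 to which it gave an adjusted p, with 5 at an unadjusted p under 0.05 (8.14% of all genes). The 5 genes are named after their edgeR values were seen. Mest, a hydrolase, had log2 fold changes of 0.26 in the lower and -0.21 in the higher range (p = 0.00618, edgeR adjusted p = 0.451), and Igf2r, the receptor that clears IGF2, of 0.21 and -0.20 (p = 0.00825, edgeR adjusted p = 0.455). The choroid plexus and astrocyte markers differed between the same MS sets, as given above, and their part in this was not tested. Between sets within condition, edgeR called 0 of the 44, with 2 at an unadjusted p under 0.05 (9.09% of all genes). DESeq2 called 1 of the 42 with an adjusted p, Slc22a3 (DESeq2 adjusted p = 0.0348, edgeR adjusted p = 0.316), beside 0.987% of all genes, with 5 at an unadjusted p under 0.05 (11.5%). Slc22a3, an organic cation transporter, had low levels in every mouse, from 0.135 CPM (C1) to 2.09 CPM (B1).

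**Figure D5:**
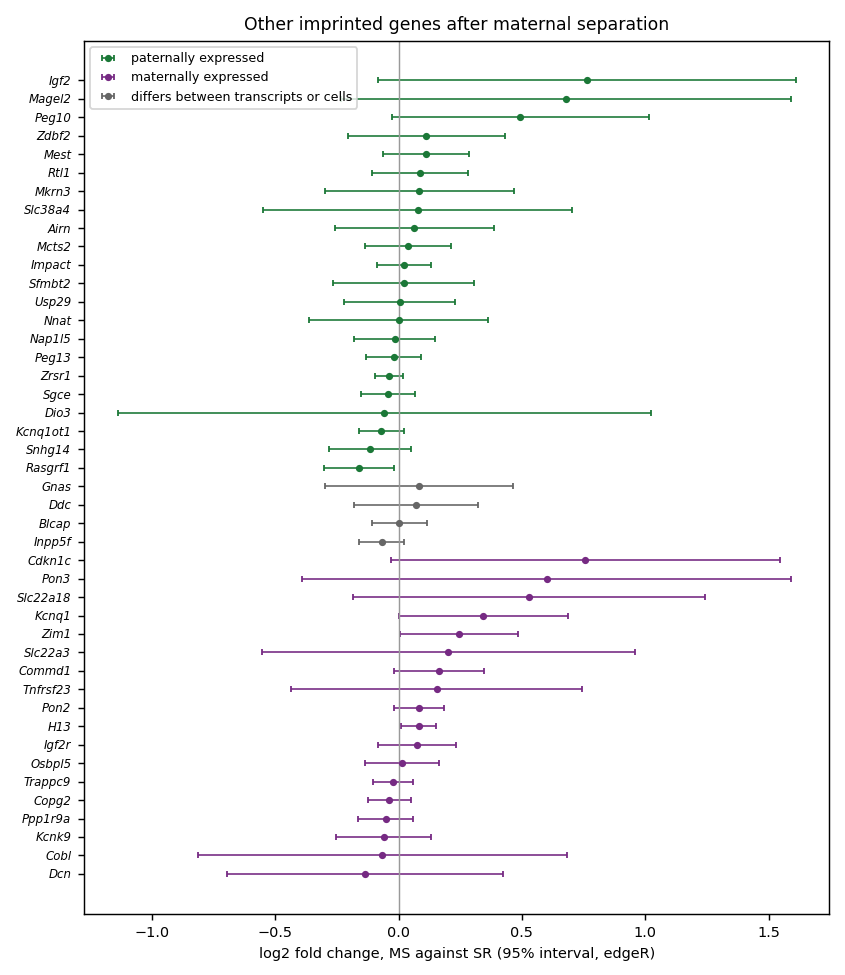
Log2 fold change in MS against SR (horizontal axis, with 95% interval from edgeR) of 44 other imprinted genes. Colours give the parental copy under which each was listed, which was not measured in these mice. Intervals that leave out 0 are those of H13, Zim1, Kcnq1 and Rasgrf1, and none of the 44 passed the adjusted test.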

How the data were processed

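PolyA RNA of whole hippocampus was sequenced with a directional kit in 9 MS and 12 SR mice. The deposited table holds raw counts per Ensembl gene, which the authors made with STAR 2.7.3a on GRCm38 and featureCounts; the strand setting was not given in the sources used here. Symbols, positions and exon lengths came from GENCODE M21 of the same build, which holds 55227 of the 55487 listed genes. The members and the lists of other imprinted genes and markers were chosen with earlier results of these data known, and the genes named outside the 10 are those in their clusters, the 3 with the smallest p in each direction and, chosen after their values were seen, Ddc, Cobl and those named for the ranges and sets.

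The library farthest from the rest on the first components of a principal component analysis of the 500 most variable genes (mouse A2, MS) was left out, since the study removed 1 outlier without naming it. No pair of libraries held identical counts. The main test was the edgeR 4.0.16 quasi-likelihood test (R 4.3.3) with TMM normalisation and filterByExpr, adjusted by Benjamini and Hochberg over 18146 genes at 0.05. CPM values were scaled by TMM, and log2 CPM used a prior count of 2. Intervals are 95%. Correlations were permuted within condition (two-sided). DESeq2 1.42.0, the study's tool, limma 3.58.1 with sets as a block, other normalisations and filters, terms for markers, transcript length and range, and fits without each mouse or set were tried as alternatives. The fits and the correlations were tested on simulated data. The lowest count of any member in a mouse was 31 reads.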

Additional observations from a re-analysis of the deposited data

Results flagged for a closer look

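Snrpn in MS mouse C1, at 633 CPM, stood apart from the other 7 MS mice that were fitted (414 to 485 CPM) by a gap of 0.676 of the whole MS range, above Dixon's 95% critical value for 8 samples. It was the single such value among the 10 genes in the MS mice, and chance alone flags about 1 in 20 groups tested this way. The SR mice were not tested this way, so whether they hold such values is not known from it. C1 was also the lowest MS mouse in Meg3, Rian and Peg3. It had the highest summed astrocyte (1389 CPM) and oligodendrocyte (7510 CPM) markers of the 20 mice, and their part in its Snrpn level was not tested.

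In MS mouse A2, which was left out of the tests, 4 of the 10 genes lay above the highest SR mouse. Meg3 was at 6316 CPM (highest SR 5779), Rian at 726 CPM (highest SR 688), Mirg at 39.7 CPM (highest SR 34.8) and Grb10 at 43.5 CPM (highest SR 40.2), on the scale of all 21 libraries. The same library had the lowest dentate granule cell markers (231 CPM summed) and the highest striatal markers (2611 CPM summed), and their part in these levels was not tested.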

How the results depend on the processing

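No paired analysis was possible because the labels give MS and SR mice no shared replicate numbers. In the values of single members, 294 of 310 alternatives and 581 of 600 fits without 1 mouse kept direction and call. The number of members called in MS against SR moved from 0 to 1 without set C (Snrpn), and that between sets from 0 to 5 without a filter on low counts. The number of correlated pairs was 19, ran from 16 to 21 in the other alternatives and was 0 in the higher range alone, where 6 mice allow few permutations. There r was -0.27 for Peg3 with Ube3a, -0.44 for Meg3 with Ube3a and -0.22 for Rian with Ube3a.

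For MS against SR, the log2 fold change turned to 0.0035 for Rian with all 21 libraries, and to 0.14 in the higher range alone, 0.0073 without set A, 0.048 without set B and 0.0069 with the choroid plexus term for Snrpn. It turned to -0.082 in the higher range alone and -0.064 without set B for Grb10, to -0.0062 without set E for Dlk1 and to 0.0052 with the length term for Peg3. Without 1 mouse each it ran from -0.037 to 0.11 for Grb10 (below 0 without B1) and from -0.058 to 0.43 for Dlk1 (below 0 without C3), and from -0.10 (without C1) to -0.0022 for Snrpn. The causes were not tested.

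The difference of the MS effect between ranges turned to -0.015 for Mirg with all 21 libraries. Without 1 mouse each it ran from 0.13 (without C1) to 0.36 for Snrpn, -0.23 to 0.031 for Peg3, -0.096 to 0.031 for Meg3, -0.17 to 0.012 for Rian, -0.025 to 0.018 for Ube3a, -0.66 to 0.060 for Plagl1 and -1.29 to 0.31 for Dlk1. None of these values had an adjusted p under 0.05. Sets of 2 or 3 mice and 6 mice in the higher range limit what the data can show.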
